A study of Mus musculus with 2 samples.

Results

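Chromatin remodellers are the motor proteins and accessory subunits that slide, eject or exchange nucleosomes, and they are examined here together with families that share the ARID or bromodomain folds. The members are defined by gene name, as every entry whose symbol begins with Smarca to Smarce, Arid1 to Arid5, Ino80 or a numbered Brd, or is a numbered Chd gene. This choice gave 57 of the 24165 RefSeq entries in the table of gene activity, and they carry 47 of its 20128 gene symbols. C2C12 is an established mouse line of muscle precursor cells (myoblasts) that form myotubes when serum is withdrawn, and here the cells were untreated, kept in high-glucose DMEM with serum and taken at 80% confluency. In global run-on sequencing (GRO-seq), nuclei are given bromouridine so that engaged polymerases extend and label their nascent RNA, which is then captured and sequenced. The 2 libraries were pooled before gene activity was computed, so each RefSeq entry has a single value, in RPKmM, which is the number of sense-strand reads per kilobase of mappable gene body, scaled to the number of reads sequenced. The gene body runs from 1 kb downstream of the transcription start site (TSS) to the transcript end. Entries that could not be told from the background of gene deserts are listed as Inactive.

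SWI/SNF complexes (also called BAF) use the ATPase Smarca4 (BRG1) or Smarca2 (BRM), ISWI complexes use Smarca5 (SNF2H) or Smarca1 (SNF2L), NuRD uses a Chd3, Chd4 or Chd5 protein, and the INO80 complex is built on Ino80. In muscle cells SWI/SNF is known for opening the regulatory regions of muscle genes together with MyoD, and the BAF60c subunit, encoded by Smarcd3, binds MyoD directly. Gene activity measures polymerases on the gene and not the amount of mature RNA or protein.

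No value per library was used, so no standard deviation and no test across replicates can be given, and every difference below is between single values of the pooled libraries. The table gives activities without read numbers, and no counting interval was computed. The error stated here is that of rounding to 2 decimals, which is given as a range beside some of the ratios, and where a gene has several entries their spread is given. Of the myoblast markers, Des was listed at 72.45 RPKmM, Itga7 at 13.29, Cdh15 at 8.08, Myf5 at 5.03, Myod1 at 2.39 and Pax7 at 0.55. Among early and late differentiation genes, Acta1 was at 6.85, Myh3 at 5.28, Myog at 2.39 and Ckm at 0.2, so polymerases were also found on genes of differentiating muscle. Neurod1, Alb, Epcam and both entries of Ptprc were Inactive, and Pecam1 was at 0.01.

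Nearly all remodeller genes were transcribed. Of the 57 entries, 55 (96.5%) were active, beside 70.2% of all entries in the table, and 45 of the 47 symbols (95.7%) had an active entry, beside 68.7% of all symbols. The 2 inactive entries were those of Smarca1, the second ISWI ATPase, and Arid3c, an ARID protein whose relatives Arid3a and Arid3b were active. The median of the 55 active entries was 1.74 RPKmM, and the middle part of them, between the quartiles, ran from 0.94 to 3.52, within a range from 0.03 to 26.03. For all other active entries the median was 0.87 and the quartiles 0.22 and 1.99, so the median of the remodeller entries was 2.0 times as high. A remodeller entry was the more active in 67.0% of all pairs formed with another active entry. The median of all active entries, 0.87, was exceeded by 42 of the 55 entries (76.4%), beside 49.7% of all active entries. The 90th percentile, 4.11, was exceeded by 10 (18.2%), beside 9.99%. These 10 were the entries of Chd4, Chd3, Smarcd3 and Smarcb1, and otherwise entries of bromodomain genes outside SWI/SNF, including all 3 of Brd2. Below 0.1 RPKmM lay 3 of the 55 entries (5.45%), compared with 18.5% of all active entries. With inactive entries counted as 0 in both groups, the ratio of medians was 5.19.

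**Figure D1:**
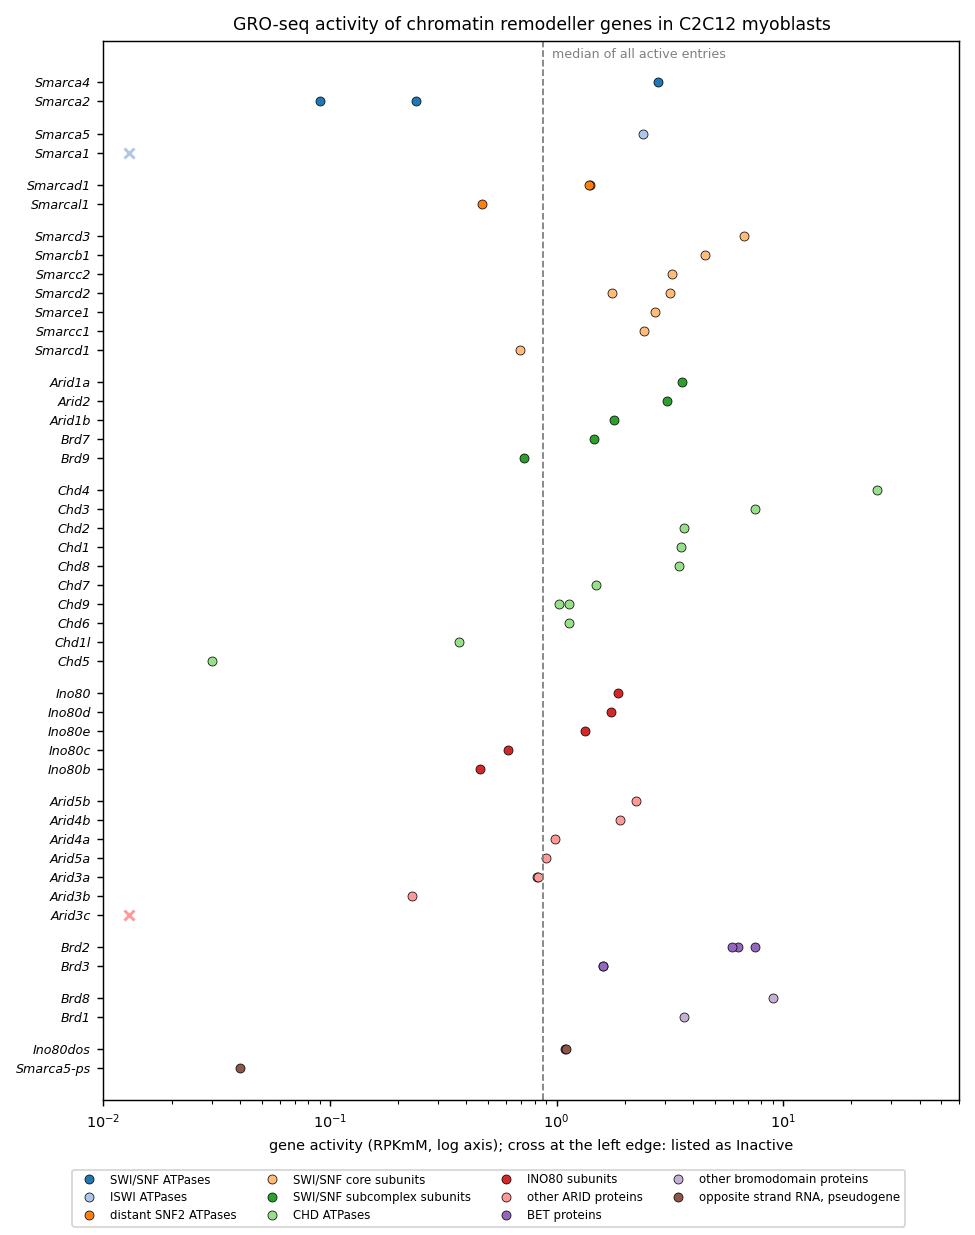
Gene activity of the remodeller genes named in the text (RPKmM, log axis), 1 point for each active RefSeq entry, coloured by class, with a cross at the left edge for an entry listed as Inactive and a dashed line at the median of all active entries (0.87). Chd4 stands far to the right at 26.03, and Smarca2, Chd5 and Smarca5-ps lie far to the left.

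**Figure D2:**
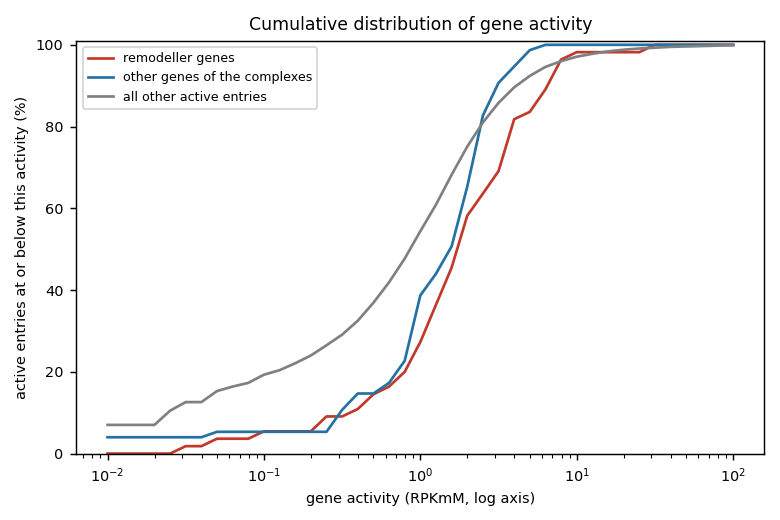
Percent of active entries at or below each gene activity (RPKmM, log axis) for the 55 remodeller entries, the 75 active entries of other genes of the complexes, and all 16902 other active entries, which include those 75. The curve of the remodeller genes lies to the right of that of all other entries over most of the range, with medians of 1.74 and 0.87.

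The sequences below are shown because they belong to groups of close relatives with large contrasts in activity, and not every member of these groups is shown. Each is the 200 bases of mm9 immediately before the start site of the longest spliced GENCODE transcript (for Smarca2, of the long and the short form), read 5′ to 3′ in the direction of transcription, with every CpG in capitals. The SWI/SNF ATPase genes have 3 start sites of interest. Smarca4 starts at position 21420613 of chromosome 9 (chr9:21420413-21420612, plus strand), Smarca2 at 26679650 of chromosome 19 (chr19:26679450-26679649, plus strand), and the short form of Smarca2 at 26822893 (chr19:26822693-26822892).
Smarca4: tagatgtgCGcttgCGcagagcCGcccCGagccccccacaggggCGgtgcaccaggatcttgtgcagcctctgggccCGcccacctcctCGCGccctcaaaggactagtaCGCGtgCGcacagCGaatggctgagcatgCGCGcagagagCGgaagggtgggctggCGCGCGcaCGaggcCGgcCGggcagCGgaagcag
Smarca2: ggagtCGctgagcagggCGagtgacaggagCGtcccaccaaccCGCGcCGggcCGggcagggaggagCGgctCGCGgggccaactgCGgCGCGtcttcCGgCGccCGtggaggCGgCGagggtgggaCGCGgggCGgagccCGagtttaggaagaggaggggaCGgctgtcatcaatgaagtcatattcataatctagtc
Smarca2 internal start: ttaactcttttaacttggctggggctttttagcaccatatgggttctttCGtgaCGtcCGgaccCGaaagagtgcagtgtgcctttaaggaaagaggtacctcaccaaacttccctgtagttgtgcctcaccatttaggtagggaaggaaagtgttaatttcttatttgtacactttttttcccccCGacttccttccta
The first of these holds 22 CpG and the second 23, while the internal start has only 5, in a stretch of 44.5% G and C.

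Of the alternative SWI/SNF motors, Smarca4 was far more active than Smarca2, although both were called active. Smarca4 (NM_001174078) was listed at 2.81 RPKmM, above 83.4% of all active entries. The full-length entry of Smarca2 (NM_011416) was at 0.09, above 17.8%, and the entry of its short form (NM_026003) was at 0.24, above 25.7%. The ratio of Smarca4 to Smarca2 was 31.2 (29.5 to 33.1 by rounding) for the full-length entry and 11.7 for the short one, so the contrast between these paralogs was far larger than that between the entries of Smarca2. The likeness of the sequences before the full-length starts in CpG, with 22 and 23, depends on the start taken for Smarca2. The longest spliced transcript of Smarca2, the kind used for every other gene, starts elsewhere and has 14 CpG in the 200 bases before it.

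The entries of Smarca2 themselves differed by 2.67 times (2.47 to 2.88). GENCODE places the internal start 143 kb downstream of the first, and both forms end together, so the gene body of the short form (28.9 kb) lies wholly inside that of the long form (172 kb) and makes up 16.8% of it. If all bases are mappable, 44.8% of the reads on the long gene body (41.6 to 48.4% by rounding) fell in this last part. The remaining, upstream part then had a density of 0.0597 RPKmM (0.0527 to 0.0667), and the short form was 4.02 times as dense (3.52 to 4.65). Polymerase was therefore unevenly spread over Smarca2, with a higher density beyond the internal start. The positions used are those of GENCODE, and these values rest on the assignment of NM_026003 to the internal start.

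The ISWI motors also differed, and here only 1 of the pair was called active. Smarca5 (NM_053124) was at 2.41 RPKmM, above 79.9% of active entries, whereas Smarca1 (NM_001290708), which lies on the X chromosome from 45162547 to 45246151, was Inactive. Smarca5-ps (NR_002888), a transcribed pseudogene of Smarca5, was at 0.04, and Smarca5 was 60.2 times as high (53.4 to 69.0). Reads that could come from either copy do not map uniquely and were discarded by the authors, so the value of Smarca5-ps is uncertain. The 200 bases before the Smarca5 start (chr8:83263397-83263596, minus strand) hold 26 CpG, and those before the Smarca1 start (chrX:45245730-45245929, minus strand) hold 9. The annotated Smarca1 gene extends further upstream, to 45246151, beyond the printed sequence, so its count depends on the start taken.
Smarca5: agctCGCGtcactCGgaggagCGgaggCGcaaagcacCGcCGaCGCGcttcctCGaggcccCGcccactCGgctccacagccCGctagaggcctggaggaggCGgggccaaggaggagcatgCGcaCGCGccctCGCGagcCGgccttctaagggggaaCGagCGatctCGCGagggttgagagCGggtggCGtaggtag
Smarca1: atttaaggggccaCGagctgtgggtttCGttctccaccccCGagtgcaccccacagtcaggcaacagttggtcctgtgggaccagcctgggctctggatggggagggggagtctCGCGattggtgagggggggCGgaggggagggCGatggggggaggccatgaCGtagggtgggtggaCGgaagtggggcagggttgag
Among the more distant SNF2 motors, Smarcad1, which acts in heterochromatin maintenance and DNA end resection, was at 1.4 and 1.39 in its 2 entries, and Smarcal1, an annealing helicase of stalled replication forks, was at 0.47.

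All 8 entries of SWI/SNF core subunits were active, beside 70.2% of all entries, with a median of 2.95 RPKmM and 7 of the 8 above the median of all active entries, beside 49.7% of all active entries. Smarcb1 (SNF5), which contacts the nucleosome, was at 4.5. The scaffold genes Smarcc2 (BAF170) and Smarcc1 (BAF155) were near each other at 3.22 and 2.42, a ratio of 1.33. Smarce1 (BAF57), a subunit with a DNA-binding HMG domain, was at 2.73.

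The largest contrast within the core was among the BAF60 genes, of which a complex uses a single variant. Smarcd3 (BAF60c, NM_025891), the variant that binds MyoD, was at 6.7, above 95.1% of active entries and the highest of all SWI/SNF genes examined. Smarcd2 (BAF60b) was at 3.17 (NM_031878) and 1.75 (NM_001130187), and Smarcd1 (BAF60a, NM_031842) was at 0.69. Smarcd3 was thus 9.71 times as high as Smarcd1 (9.63 to 9.79) and 2.11 or 3.83 times as high as Smarcd2, depending on the entry. The entries of Smarcd2 differed by 1.81 times (1.8 to 1.82), and GENCODE lists protein-coding transcripts of this gene with different starts and a common end. The starts of the 3 BAF60 genes are all rich in CpG, with 29 for Smarcd3 (chr5:24107795-24107994, minus strand), 15 for Smarcd2 (chr11:106134287-106134486, minus strand) and 23 for Smarcd1 (chr15:99532518-99532717, plus strand).
Smarcd3: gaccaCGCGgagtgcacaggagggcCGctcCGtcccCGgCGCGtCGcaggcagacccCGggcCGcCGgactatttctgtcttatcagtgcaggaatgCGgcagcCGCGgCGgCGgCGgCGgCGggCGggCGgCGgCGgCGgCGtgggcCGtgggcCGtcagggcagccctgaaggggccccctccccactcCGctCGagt
Smarcd2: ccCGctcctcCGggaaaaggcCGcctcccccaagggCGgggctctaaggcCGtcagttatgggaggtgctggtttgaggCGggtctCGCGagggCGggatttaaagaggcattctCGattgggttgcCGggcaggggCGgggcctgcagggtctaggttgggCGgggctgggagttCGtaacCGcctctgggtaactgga
Smarcd1: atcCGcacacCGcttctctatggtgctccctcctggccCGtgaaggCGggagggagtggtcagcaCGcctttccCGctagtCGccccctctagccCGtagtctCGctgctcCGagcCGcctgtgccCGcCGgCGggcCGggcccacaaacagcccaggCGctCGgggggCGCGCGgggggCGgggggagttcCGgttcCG
Smarcd1, the least active, has more CpG before the start than Smarcd2. The Smarcd3 start is that of a transcript annotated as a retained intron, and a protein-coding transcript of this gene starts slightly upstream, at 24107830, within the printed sequence.

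The 5 entries of ARID and bromodomain subunits that distinguish the forms of SWI/SNF were active, beside 70.2% of all entries, and 4 of them exceeded the median of all active entries, beside 49.7%. Arid1a (BAF250A), which marks canonical BAF, was at 3.59, and its alternative Arid1b (BAF250B), the longest gene examined at 353 kb, was at 1.8, a ratio of 1.99 (1.99 to 2.0). Arid2 (BAF200) and Brd7, which mark the PBAF form, were at 3.08 and 1.46. Brd9, which marks the non-canonical form, was at 0.72, below the median of all active entries, and Brd7 was 2.03 times as high (2.01 to 2.05). Genes that define each of the 3 forms were therefore transcribed in these cells, with Brd9 the lowest of these 5.

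The CHD family spanned the whole range of the remodeller genes, from the highest to the lowest active entry. Chd4 (Mi-2β, NM_145979), the main NuRD motor, was at 26.03 RPKmM, and 145 of the 16957 active entries were higher. Chd3 (Mi-2α) was at 7.48 and Chd5, which is known mainly from brain and testis, at 0.03. Chd4 was 3.48 times as high as Chd3 and 868 times as high as Chd5 (744 to 1040), although the value of Chd5 is near the rounding step.

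The other CHD genes were more alike. Chd2, at 3.64, and Chd1, at 3.56, both of which bind active genes, differed by a factor of only 1.02 (1.02 to 1.03). Of the subfamily of Chd6 to Chd9, Chd8 (a repressor of β-catenin targets) was highest at 3.47, followed by Chd7 (mutated in CHARGE syndrome) at 1.5. Chd6 was at 1.14 and Chd9 at 1.14 and 1.02 in its 2 entries. Chd1l (ALC1), a motor activated by poly(ADP-ribose), was at 0.37. The median over the 11 CHD entries was 1.5, and it was 2.49 when each gene was taken at its highest entry.

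The starts of Chd4 (chr6:125045799-125045998, plus strand) and Chd5 (chr4:151712560-151712759, plus strand), the extremes of the family, hold 12 and 16 CpG in the 200 bases before them.
Chd4: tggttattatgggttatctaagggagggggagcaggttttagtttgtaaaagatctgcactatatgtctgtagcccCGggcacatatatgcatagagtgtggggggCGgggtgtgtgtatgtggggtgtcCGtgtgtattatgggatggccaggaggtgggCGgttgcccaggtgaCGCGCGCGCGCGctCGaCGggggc
Chd5: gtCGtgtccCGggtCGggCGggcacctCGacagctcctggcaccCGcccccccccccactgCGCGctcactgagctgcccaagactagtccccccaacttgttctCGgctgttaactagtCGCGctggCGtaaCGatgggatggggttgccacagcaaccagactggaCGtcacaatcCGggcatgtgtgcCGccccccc
The sequence before the least active CHD gene is thus no poorer in CpG than that before the most active.

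Chd4, Chd3 and Chd8 have a feature in common that none of the other protein-coding genes of the set has, an RNA of the small nucleolar type annotated inside the gene on its own strand. They are 3 of the 43 active protein-coding genes (6.98%), compared with 1.94% of all active protein-coding genes. Such RNAs are released from introns and guide the chemical modification of ribosomal or spliceosomal RNA, and scaRNAs act in Cajal bodies. In Chd4 the RNA is SCARNA11 (chr6:125071742-125071877, plus strand), 25.7 kb downstream of the start of this 34.6 kb gene. In Chd3 it is SCARNA21 (chr11:69164020-69164163, minus strand), 18.7 kb from the start. In Chd8 it is AC159323.1 (chr14:52829460-52829569, minus strand), 27.7 kb from the start. None of the 3 overlaps an annotated exon of its host, so each is intronic. Their mm9 sequences are shown because they lie in the gene bodies over which the activity of their hosts was computed. Capitals mark the last ACA of the SCARNA entries, the letters found near the 3′ end of H/ACA RNAs, and in AC159323.1 the letters TGATGA and CTGA found in the C and D boxes of C/D RNAs.
SCARNA11: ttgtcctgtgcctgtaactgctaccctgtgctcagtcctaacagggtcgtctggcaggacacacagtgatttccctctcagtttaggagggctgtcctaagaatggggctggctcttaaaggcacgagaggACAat
SCARNA21: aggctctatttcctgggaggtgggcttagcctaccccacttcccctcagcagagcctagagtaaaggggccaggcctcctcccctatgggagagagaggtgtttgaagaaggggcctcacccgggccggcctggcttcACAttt
AC159323.1: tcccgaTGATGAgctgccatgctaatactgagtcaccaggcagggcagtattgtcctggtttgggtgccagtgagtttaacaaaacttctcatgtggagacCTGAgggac
The last ACA is followed by 2 bases in SCARNA11 and by 3 in SCARNA21. These RNAs are 136, 144 and 110 bases long and make up 0.393, 0.551 and 0.277% of their host genes.

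The hosts Chd4 and Chd3 were at 26.03 and 7.48 RPKmM, whereas the 7 CHD genes without such an RNA reached at most 3.64. The host Chd8, at 3.47, was not above Chd2 (3.64) and Chd1 (3.56), which have no such RNA. Over all 11947 active protein-coding genes that could be placed in GENCODE, the 232 with a sense snoRNA gene had a median of 2.12 (quartiles 0.88 and 7.13) and the 11715 without had 0.91 (0.26 and 2.03). A host was the more active in 68.1% of pairs. An activity of at least 20 was found for 30 of the hosts (12.9%) and for 112 of the other genes (0.956%). Of the genes above Chd4, 24 were hosts and 76 were not. How much of the activity of Chd4, Chd3 and Chd8 comes from reads on the small RNA itself was not tested, because the table gives 1 value for the whole gene body. Without these 3 genes, the median of the CHD entries was 1.14, and the median of all remodeller entries was 1.6, or 1.84 times that of all other active entries.

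**Figure D3:**
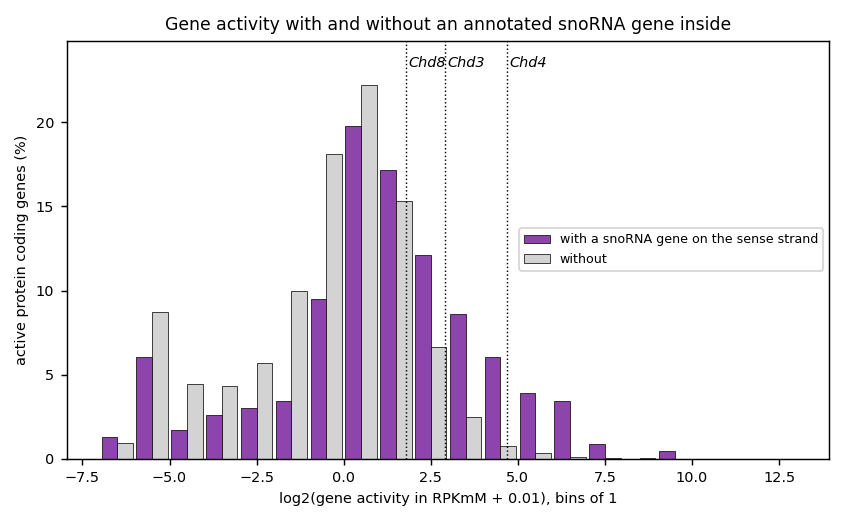
Distribution of gene activity, as log2 of RPKmM plus 0.01 in bins of 1, for the 232 active protein-coding genes with a snoRNA gene on their sense strand and the 11715 without, each as percent of its group. Dotted lines mark Chd8, Chd3 and Chd4, and at the right of the plot, where Chd4 lies, the bars of host genes are taller than those of the others.

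The 5 entries of Ino80 genes for subunits of the INO80 complex were active, beside 70.2% of all entries, with a median of 1.34 RPKmM and 3 of the 5 above the median of all active entries, a share near the 49.7% of all active entries. Its ATPase Ino80 was at 1.86, Ino80d at 1.74 and Ino80e at 1.34. The other subunits were lower, with Ino80c at 0.61 and Ino80b at 0.46, and Ino80 was 4.04 times as high as Ino80b (3.99 to 4.10). Ino80b is also the shortest protein-coding gene of the set, with 3.67 kb, and the first kilobase of this is not counted.

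Ino80d and its neighbour Ino80dos, an opposite-strand noncoding RNA, start head to head on chromosome 1. Ino80d runs on the minus strand from 63004992 to 63161241, and Ino80dos, named Gm11602 in GENCODE, on the plus strand from 63161045 to 63204864, so their first bases overlap. The entries of Ino80dos were at 1.09 and 1.1, and Ino80d was 1.6 or 1.58 times as high. Polymerase was thus found on both sides of this start region, in each direction above the median of all active entries.

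The ARID proteins outside SWI/SNF had a median of 0.9 over 7 active entries, near that of all active entries. Arid5b, a cofactor of the histone demethylase Phf2, was highest at 2.24, and Arid5a, an RNA-binding protein of inflammatory transcripts, was at 0.9, a ratio of 2.49 (2.47 to 2.51). Arid4b and Arid4a, subunits of the Sin3 histone deacetylase complex, were at 1.9 and 0.98, a ratio of 1.94 (1.92 to 1.95). The entries of Arid3a, a factor known from B lymphocytes, were at 0.82 and 0.83, Arid3b was at 0.23, and Arid3c was Inactive.

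The bromodomain proteins outside SWI/SNF included some of the most active genes. Brd2, a BET protein that binds acetylated histones at active promoters, was listed at 7.51, 6.32 and 5.95 in its 3 entries, above 94.1 to 95.7% of active entries. Brd3, another BET protein, was lower at 1.6 and 1.61. The highest and the lowest entry of Brd2 differed by 1.26 times, and Brd2 exceeded Brd3 by 3.7 to 4.69 times, depending on the entries. Brd8, a subunit of the TIP60 acetyltransferase complex, had the second highest listed value of all genes chosen by name, 8.99. Brd1, a scaffold of MYST acetyltransferases, was at 3.67.

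Several entries were listed for 9 of the 47 symbols, and in most of them the entries were nearly equal. Over these genes the median ratio of the highest to the lowest active entry was 1.07, beside 1.1 for all 2273 genes with several active entries above 0. The ratio exceeded 1.5 for 2 genes, Smarca2 and Smarcd2 (22.2%), beside 20.8% of all such genes. For Arid3a, Brd3, Ino80dos and Smarcad1 it was 1.01, within rounding. Entries of a gene draw on the same pooled reads over different annotated transcripts, so these spreads are not an error of measurement. Small differences between neighbours in the order of activity, such as Chd2, Arid1a, Chd1 and Chd8 between 3.64 and 3.47, cannot be ranked. No spread between libraries was available for this.

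The promoters and lengths of these genes were examined as features that the choice of names did not use. All 47 symbols were placed in GENCODE, 1 of them through a synonym, on 19 chromosomes. The 45 protein-coding genes had a median span of 49.5 kb (quartiles 24.8 and 105), compared with 24.5 kb for all other active genes and 15.1 kb for all other inactive genes. The authors' call of activity compares reads in the gene body with the background, so a longer gene can be called active at a lower density. How far length contributed to the high share of active entries was not tested. Within 500 bases of the start there were a median of 86 CpG (58 and 105), compared with 60 (37 and 82) for other active genes and 16 (8 and 38) for other inactive genes. At least 50 CpG were found for 35 of the 45 (77.8%), compared with 63.0% and 18.3%. Of the genes with low activity, Smarca2 had 109 and Chd5 105, but Arid3b had 64, Chd1l 63 and Ino80b 33, at the start of the longest spliced transcript of each, while the inactive Arid3c had 57 and the inactive Smarca1 41. Few CpG were counted for some active genes, as Chd8 had 3, Smarcal1 14 and Chd2 18, counts that depend on which annotated start is used.

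Across the 43 active genes, Spearman's rank correlation of activity with the number of CpG was 0.128, and with gene length it was −0.0661. Across all 11947 active protein-coding genes these were 0.349 and −0.0451. These are descriptions across genes of the same pooled libraries, and genes are not replicates.

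**Figure D4:**
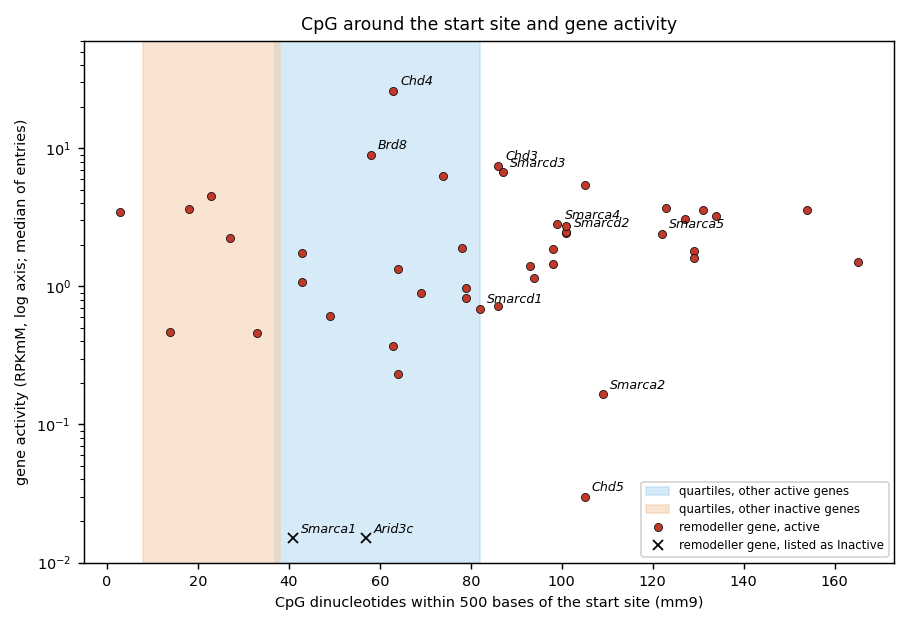
CpG within 500 bases of the start site (x axis, mm9) and gene activity (y axis, RPKmM, log axis, median of the active entries) of the 45 protein-coding remodeller genes, with shaded quartiles of the other active and inactive genes and crosses for the genes listed as Inactive. Smarca2 and Chd5 lie at the lower right, with 109 and 105 CpG and low activity.

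Short motifs were searched on both strands of the 200 bases before each start. The GC box GGGCGG was present for 30 of the 45 genes (66.7%), compared with 54.3% of other active and 24.1% of other inactive genes. The CCAAT box CCAAT was present for 8 (17.8%), compared with 31.2% and 29.3%, and the TATA box TATAAA for 3 (6.67%), compared with 5.18% and 13.0%. The E box CAGCTG, of the kind that MyoD binds, was present for 3 (6.67%), compared with 9.43% of other active and 12.3% of other inactive genes. A motif of Nrf1 was found for 0 of the 45, compared with 1.36% and 0.37%. Among the sequences printed above, all but the internal start of Smarca2 have a GC box, those of Smarca1 and Smarcd2 also have CCAAT, and the internal start has none of these motifs. A match describes the letters and not a bound site.

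Other genes of the same complexes, outside the choice by name, were listed to see whether the partners of these proteins were also transcribed. Of 66 symbols, 65 were found in the table, Pole3 being the exception, and 62 (95.4%) had an active entry, beside 68.7% of all symbols. Their 75 active entries, of 81 (92.6%, beside 70.2% of all entries), had a median of 1.57 RPKmM (quartiles 0.82 and 2.42), so the median of the remodeller entries was 1.11 times theirs, and 54 (72.0%) exceeded the median of all active entries, beside 49.7%.

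All 12 NuRD partners were active, beside 68.7% of all symbols, from 0.6 to 4.03. Highest were the scaffold gene Mta2 at 4.03 and the histone chaperones Rbbp4 at 2.83 and Rbbp7 at 2.47. Lowest were Mta3, at 0.6, 0.65 and 0.62 in its entries, the deacetylase Hdac1 at 0.77 and Mbd3 at 1.09. No NuRD partner approached the value of Chd4.

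Of the 16 SWI/SNF partners 13 were active, with 14 of their 19 entries, a share near the 70.2% of all entries. The PBAF subunits Phf10 and Pbrm1 were at 3.44 and 2.95, and the actin-like Actl6a (BAF53a) at 2.5. Actl6b (BAF53b) and Ss18l1 (CREST), subunits of neuronal complexes, were Inactive and at 0.33, and Bcl11a and Bcl11b, known from lymphoid and neural cells, were Inactive. Both entries of Dpf3 (BAF45c), known from heart and skeletal muscle, were at 0.01. Bcl7b, of the BCL7 family, was at 0.78. Among the ISWI partners, Baz1b at 4.66, Baz1a at 3.26 and Baz2a at 2.88 were highest, while Cecr2, at 0.01, Chrac1, at 0.33, and Rsf1, at 1.41, were lowest.

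All 18 partners of INO80, SRCAP and TIP60 were active, beside 68.7% of all symbols, with the motor Srcap highest at 5.12, followed by the histone exchange subunit Vps72 at 3.15 and Yy1 at 2.62. Actr6 and Mcrs1, both at 0.31, and Actr5, at 0.35, were lowest. Among the 10 further SNF2 motors, Hells, which acts in DNA methylation, was highest at 4.05, with Btaf1 at 3.61 and Atrx at 3.02. Zranb3 was at 0.31 in both entries, Ttf2 at 0.8 and Rad54l at 0.89 in both entries. The testis BET gene Brdt had an Inactive entry and an entry at 0.05.

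**Figure D5:**
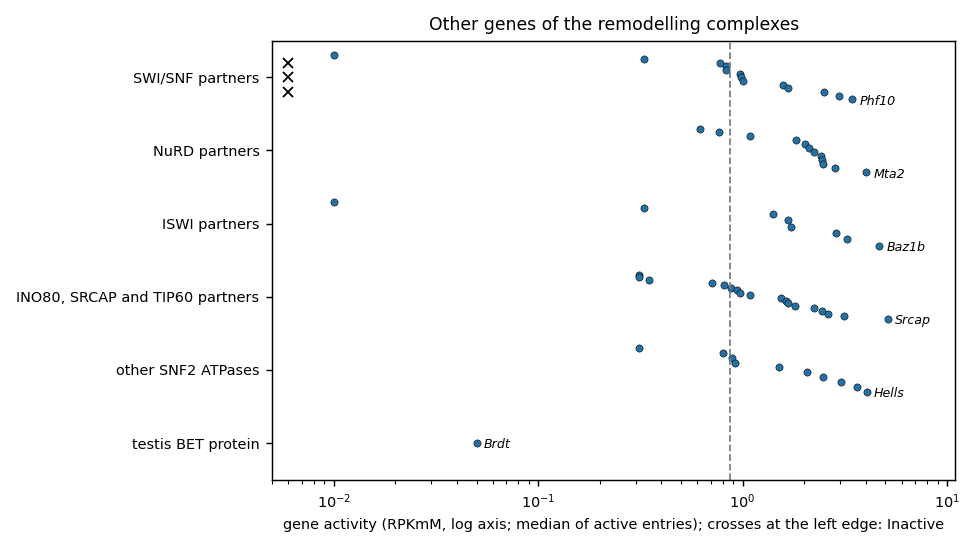
Gene activity (RPKmM, log axis, median of active entries) of the other genes of the remodelling complexes by group, 1 point for each gene, with the most active gene of each group named, crosses for genes without an active entry and a dashed line at the median of all active entries (0.87). The highest values are those of Srcap (5.12) and Baz1b (4.66).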

How the data were processed

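The data are GRO-seq of untreated C2C12 myoblasts from 2 libraries, which the study calls biological replicates. The authors used Bowtie2 and mm9 for alignment, shortened and realigned failed reads, used only unique alignments and set aside reads at rRNA and tRNA repeats. They merged the libraries and deposited gene activity in RPKmM, a form of RPKM over mappable bases, rounded to 2 decimals. Base calling used CASAVA 1.8 per the submitters' processing notes. The column holds the word Inactive in 7208 cells, so its range could not be checked automatically, and the unit follows the column name and the study's methods. The spread between libraries cannot be seen in a merged value, and a gene body counts every sense read in it, including those of RNAs inside introns. The table gives activities without read numbers, so no counting intervals were computed.

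The values were used as deposited. Medians, counts, ratios and shares of pairs were computed with Python 3.11.15, pandas 2.3.3, numpy 2.4.6 and scipy 1.17.1, drawn with matplotlib 3.10.9, and the calculation was tested on simulated data. Positions and sequences came from GENCODE vM1 and NCBIM37 (mm9), and 17422 of 20128 symbols matched a unique gene. The start of a gene is that of its longest spliced transcript, and the printed Smarca2 sequence and its gene body follow the long form, while its CpG count within 500 bases follows the longest spliced transcript. Every gene matching the rule is named except 1, which enters the counts and medians but is not reported here, and of the other genes of the complexes the 3 highest and 3 lowest of each group and every inactive gene. The members, classes and lists were chosen with earlier results of these data known. Alternatives were 1 entry per symbol, minimum activities of 0.01 and 0.1, geometric means with pseudocounts of 0.01 and 0.001, inactive entries at 0, genes of at least 10 kb and narrower sets of genes.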

Additional observations from a re-analysis of the deposited data

How the results depend on the processing

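An alternative value was taken as changed where it differed from the reported one by more than 1.5 times. The ratio of median activity of remodeller entries to all other active entries (2.0) was 5.19 with inactive entries counted as 0, and over the other alternatives it ranged from 1.49, with activities of at least 0.1, to 2.78, with geometric means and a pseudocount of 0.001, always above 1. With each gene at its highest entry, the class median of the SWI/SNF ATPases moved from 0.24 to 1.52 and that of the CHD ATPases from 1.5 to 2.49, because 1 entry fewer shifts the middle of these small classes. The median of all active remodeller entries (1.74) stayed between 1.5 and 1.8. The sets without Chd3, Chd4 and Chd8 and without Ino80dos and Smarca5-ps were chosen after seeing the data. No library could be left out, because the table holds only the pooled value. No paired analysis was possible because the samples form a single group with a single pooled column. No counting precision was computed, and values near 0.01 are coarse because of rounding.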
